A study of Mus musculus with 12 samples.

Results

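The Rab genes encode small GTPases of membrane traffic, and their members were taken as every gene whose symbol in the platform annotation is Rab followed by digits and an optional final letter. Of 16593 named genes on the array, 57 met that rule, and each was read from its brightest probe by mean bead intensity over all 12 arrays. Total RNA came from mouse astrocytes of the line labelled Rosa25/OG2, derived from neural stem cells in 10% FCS (fetal calf serum) over 4 days and matured for 14 days in all groups, and was hybridised to Illumina bead arrays. The labels give 4 h of treatment for all samples and no separate time for the controls. The non-activated control received neither stimulus nor compound. The activated control received lipopolysaccharide (LPS, 1 µg/ml) and interferon-gamma (IFN-γ, 10 ng/ml). Another 10 cultures received both stimuli and 1 hit compound, known here by code only (E33, E29, E23, E21, E20, E19, E18, E14, E5 or E4). Every group is 1 array of 1 labelled line, so no difference below has a replicate, a standard error or a p-value.

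Rab proteins switch between a GTP-bound form that holds effectors on a membrane and a GDP-bound form that is extracted into the cytosol. Exchange factors load GTP, GTPase-activating proteins trigger its hydrolysis, and a lipid anchor added by the Rab geranylgeranyl transferase ties the protein to its compartment. Each member marks a stretch of the secretory or endocytic route, so that the set covers transport from the endoplasmic reticulum to the Golgi, endosomal sorting, recycling to the surface, delivery to lysosomes and regulated exocytosis. In astrocytes these routes carry surface receptors, transporters and secreted factors.

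Intensities are given as log2 units after background correction and quantile normalisation, and the level of one probe was not set against that of another, since probes differ in their response. A gene was detected where its detection p-value was under 0.01, and a difference was called at 2-fold. The arrays detected between 9106 (E29) and 10719 (non-activated control) of 25697 probes, and the lowest detected value of an array lay between 5.37 and 5.99 log2 units, the latter on the E29 array. Among markers, 9 of 10 astrocyte genes were detected on all arrays, S100b on none, while all 8 microglia and macrophage, all 5 oligodendrocyte lineage, all 3 endothelial and all 4 fibroblast genes were undetected. Of 5 neural stem cell genes, Nes, Sox2 and Fabp7 were detected on all arrays. Sox2 stood at 9.27 without activation, 8.15 with it and 6.48 with E29, the lowest of the 12 arrays. Fabp7 went the other way, at 7.69, 7.81 and 8.74 in the same order, and E29 held its highest value. Nes stood at 10.82, 10.97 and 10.83. The part of these 3 genes in the results below was not tested. The activation genes Cxcl10 and Irf1 stood at 7.86 and 11.13 in the non-activated control and at 14.13 and 14.15 in the activated control. As a yardstick, the smallest standard deviation of differences across all genes was taken, 0.20 log2 units for E5 against the activated control. By share of genes past 2-fold E20 and E23 differed less than E5 (0.0406% and 0.0410%, against 0.0947%).

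Of the 57 Rab genes, 37 were detected on at least 1 array (64.9%, against 49.0% of all named genes) and 35 on all 12. Rab7b was detected on 6 arrays, and Rab39b, which is known from neurons, on the E20 array alone. The other 20 were detected nowhere. They comprise 5 of the 7 members of regulated secretion (Rab3b, Rab3c, Rab27a, Rab27b and Rab37), the epithelial Rab17 and Rab25, and Rab15, Rab19, Rab20, Rab39, Rab40b, Rab42, Rab44, Rab2b, Rab9b, Rab30, Rab33a, Rab38 and Rab43. Across the arrays the members' spread was near that of other genes: the median distance between the highest and the lowest array was 0.78 log2 units for the 35 members detected throughout, against 0.90 for the 5912 genes detected throughout. Rab2a, which acts between the endoplasmic reticulum and the Golgi, had the narrowest span of the 35 (0.27, from 12.09 to 12.36). The late endosomal Rab7 spanned 0.37 and the early endosomal Rab5a and Rab5c spanned 0.39 and 0.42. Rab8b had the widest span, 2.65.

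**Figure D1:**
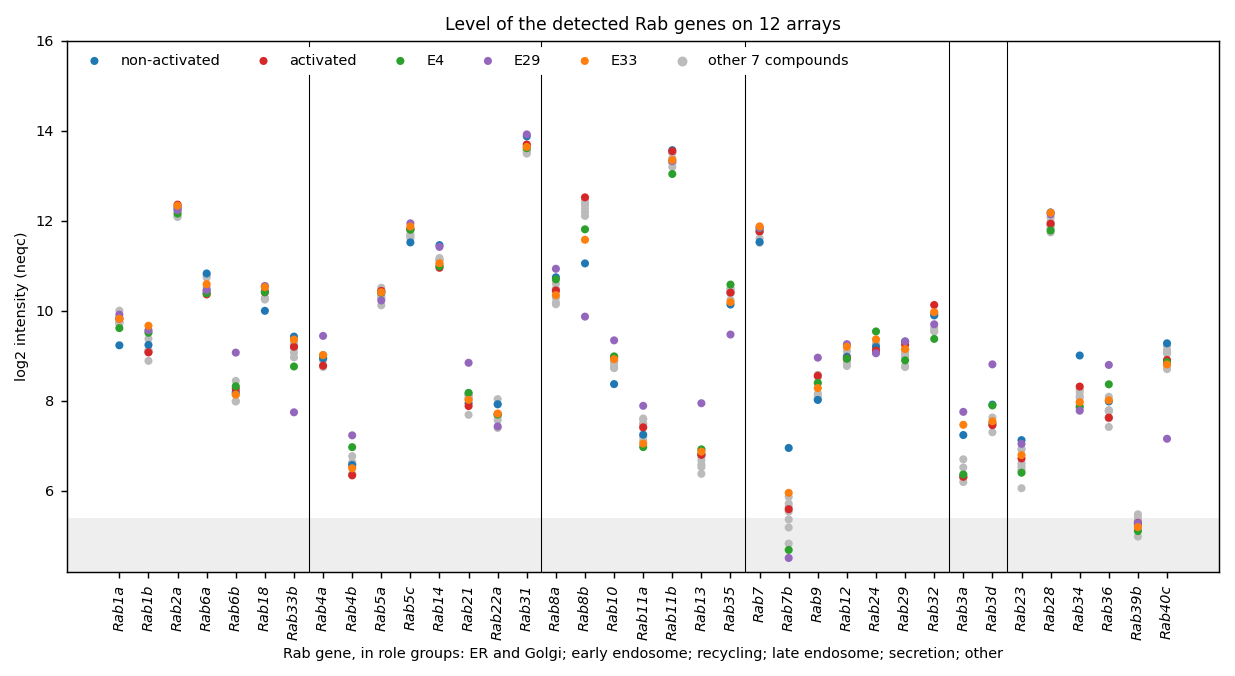
Log2 intensity of the 37 detected Rab genes on each of the 12 arrays, one point per array, with genes on the horizontal axis in role groups separated by lines; the grey band lies below the lowest detected value of the array with the deepest floor (5.37). Rab8b spans 2.65 log2 units and Rab2a 0.27, and heights of different genes are not comparable.

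By role, the levels of the members detected throughout were as follows. On the route from the endoplasmic reticulum through the Golgi, Rab1a, which starts that route, lay between 9.23 (non-activated control) and 10.00 (E19), and its paralogue Rab1b lay between 8.89 (E14) and 9.67 (E33). Rab6a, of retrograde Golgi traffic, lay between 10.37 and 10.83 by the probe used, highest in the non-activated control. Both other Rab6a probes, detected on all 12 arrays, were highest with E29 (8.29 and 7.25, against 7.61 and 6.61 in the non-activated control). Rab18, found on lipid droplets and the endoplasmic reticulum, was lowest in the non-activated control at 10.00. At the early endosome Rab31 lay between 13.49 and 13.92, Rab14, which links the Golgi and endosomes, between 10.96 and 11.46, and Rab22a between 7.40 and 8.04. Among recycling members, Rab11b, of the recycling endosome, lay between 13.04 (E4) and 13.57 (non-activated control), Rab11a between 6.97 (E4) and 7.89 (E29) and Rab8a between 10.15 (E21) and 10.93 (E29). Among late endosomal and lysosomal members, Rab29 lay between 8.75 and 9.32 and Rab24, linked to autophagy, between 9.06 and 9.54. Of the last group, Rab28, a ciliary member, lay between 11.74 and 12.19, and Rab23, an inhibitor of Hedgehog signalling at the cilium, between 6.06 (E18) and 7.13 (non-activated control).

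The first comparison asks what LPS with IFN-γ changed. Rab8b was higher and Rab7b lower at 2-fold, and the other 34 measured members were not called. The 2 calls among 36 measured members are 5.56%, beside 5.30% of all 7659 measured genes (3.17% higher and 2.13% lower), so the share was near the background. At 1.5-fold 6 members were past the line, 16.7%, beside 15.7% of all genes. The members' median log2 difference was -0.07, against -0.03 for all genes. Of the 36 members, 13 lay above 0 and 23 below, beside 3483 above and 4171 below of all 7659 genes.

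Rab8b, which with Rab8a carries vesicles to the plasma membrane and to cilia, stood at 11.05 in the non-activated control and at 12.52 in the activated control. With compounds, from the highest down, it stood at 12.49 (E21), 12.42 (E20), 12.38 (E18), 12.36 (E23), 12.27 (E19), 12.19 (E5), 12.11 (E14), 11.81 (E4), 11.58 (E33) and 9.87 (E29). By this probe the activated control held the highest of the 12 values, and every activated array other than E29 lay above the non-activated control. The activated control was 2.76-fold higher than the non-activated control (log2 difference 1.47), and the median of all 11 activated arrays was 2.32-fold higher, a reference by which 5.02% of all genes were called. The other Rab8b probe, also detected on all 12 arrays, gave a log2 difference of 1.46, from 10.37 to 11.84. By that other probe E21 (12.07), E23 (12.06), E18 (12.02), E20 (11.92) and E14 (11.89) stood above the activated control.

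Rab7b, a late endosomal member that in macrophages limits Toll-like receptor signalling by sending the receptor to lysosomes, stood at 6.95 without activation and at 5.59 in the activated control. It was also detected with E5 (5.87), E20 (5.65), E21 (5.72) and E33 (5.96). On the E4, E14, E18, E19, E23 and E29 arrays it was not well above background. The non-activated control thus held the highest value, and all activated arrays lay below it. The log2 difference was -1.36, a 2.57-fold lower level in the activated control, which stood just above that array's floor of 5.52. The call ended with an offset of 50 (-0.94) and without background correction (-0.61).

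Further members lay short of 2-fold. Rab3a, which tethers synaptic vesicles before release, had a log2 difference of -0.93 on activation, and passed the line in the authors' processed intensities (-1.04) and with reference gene scaling (-1.18). Rab34, which positions lysosomes and takes part in cilium formation, had -0.69. It was highest without activation (9.01) and lay between 7.78 (E29) and 8.32 (activated control) on the activated arrays, so that against the median of those 11 arrays the difference was -1.03. Both other Rab34 probes differed the same way on activation (-0.73 and -0.69), the former detected on 9 arrays. Rab10, which brings transporters and, in macrophages, Toll-like receptor 4 to the surface, had 0.60, and Rab1a had 0.59. Both were lowest in the non-activated control, Rab10 at 8.37 against 8.73 to 9.34 elsewhere.

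**Figure D2:**
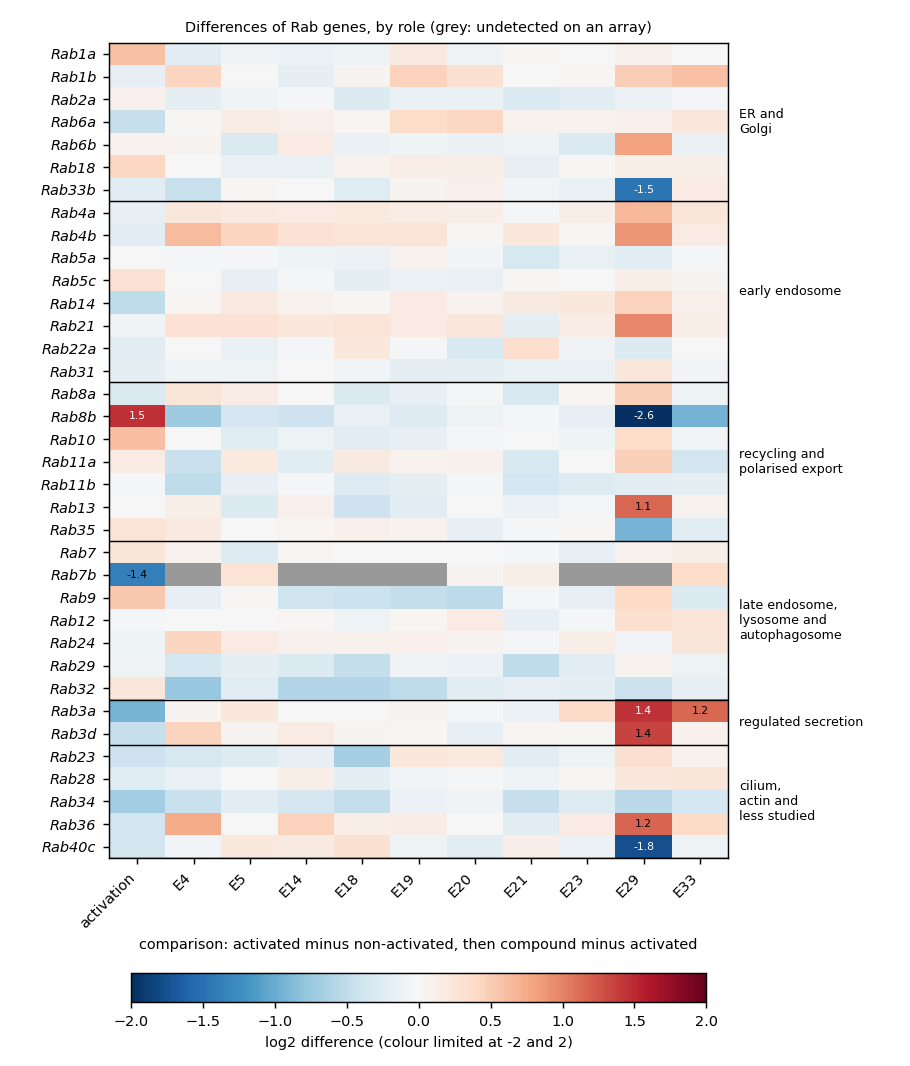
Log2 difference of 36 Rab genes (rows, grouped by role) in the 11 comparisons (columns); red is higher and blue lower, numbers mark differences of at least 2-fold, and grey cells had an undetected array. Rab8b carries the single 2-fold increase of activation and the lowest value with E29, and 8 of the 10 compound columns hold no number.

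The next comparison asks what E29 changed in activated cells. Rab8b, Rab40c and Rab33b were lower and Rab3a, Rab3d, Rab36 and Rab13 were higher at 2-fold, each detected on both arrays. These 7 of 36 measured members are 19.4%, beside 24.7% of all 7472 measured genes (10.2% higher and 14.5% lower). The members' median log2 difference was 0.22 and that of all genes 0.25, values raised to an array's lowest detected value included. Over genes detected on both arrays the medians were 0.21 (35 members) and 0.30 (6132 genes). At 1.5-fold 12 members were past the line, 33.3%, beside 51.0% of all genes. With the other 10 activated arrays' median as reference, the 7 calls were the same genes, beside 21.7% of all genes. On 16 of the 35 members detected throughout, E29 was the highest of the 12 arrays (45.7%, against 48.7% of all genes detected throughout), and on 6 it was the lowest (17.1%, against 20.5%).

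Rab8b was 6.27-fold lower with E29 than in the activated control (log2 difference -2.65), and its other probe gave -2.33. With E29 it also lay 2.27-fold below the non-activated control, a comparison in which 20.5% of all genes were past 2-fold. The activation genes Cxcl10 and Irf1 stood at 6.12 and 9.73 on the same array, also below the non-activated control. In mean bead intensity before normalisation it read 2305.1 without activation, 6182.4 with activation and 913.1 with E29. The value stayed past 2-fold under every alternative setting, between -2.94 and -2.44.

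Rab40c, whose protein carries a SOCS box and joins a cullin ubiquitin ligase, stood at 9.28 without activation and 8.91 with it. With compounds it stood at 9.22 (E18), 9.13 (E5), 9.10 (E14), 9.05 (E21), 8.86 (E4), 8.81 (E19), 8.81 (E33), 8.79 (E23), 8.70 (E20) and 7.16 (E29). The E29 value stood apart below all others, 3.37-fold under the activated control and 4.35-fold under the non-activated control. Rab33b, a Golgi member that recruits the autophagy protein Atg16l1, stood at 9.43 without activation, at 9.20 with it and, with compounds, at 9.36 (E33), 9.30 (E20), 9.26 (E19), 9.22 (E5), 9.21 (E14), 9.16 (E21), 9.07 (E23), 8.97 (E18), 8.76 (E4) and 7.75 (E29). The E29 array again stood apart below the other 11, and E4 was next. With E29 the level was 2.74-fold under the activated control and 3.21-fold under the non-activated control. Rab35, of fast recycling from endosomes to the surface, followed at just under 2-fold: it stood at 9.47 with E29 and between 10.14 and 10.58 on the other 11 arrays, and its log2 difference was -0.93.

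The promoters of the 3 members lower with E29 are shown with that of Rab3d, which was higher, so that starts of both kinds can be read side by side. Each runs from 250 bases before to 50 after the gene's start in the RefSeq table of build GRCm38.p6, with CpG dinucleotides in capitals. Rab8b lies at chr9:66919656-66919955, minus strand, Rab40c at chr17:25919665-25919964, minus strand, Rab33b at chr3:51483716-51484015, plus strand and Rab3d at chr9:21918134-21918433, minus strand.
Rab8b: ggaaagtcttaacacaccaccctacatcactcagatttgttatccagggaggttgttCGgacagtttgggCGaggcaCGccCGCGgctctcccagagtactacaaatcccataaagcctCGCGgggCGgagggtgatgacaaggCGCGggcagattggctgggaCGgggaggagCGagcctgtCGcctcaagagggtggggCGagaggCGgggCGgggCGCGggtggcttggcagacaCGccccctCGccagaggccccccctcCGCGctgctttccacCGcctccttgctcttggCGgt
Rab40c: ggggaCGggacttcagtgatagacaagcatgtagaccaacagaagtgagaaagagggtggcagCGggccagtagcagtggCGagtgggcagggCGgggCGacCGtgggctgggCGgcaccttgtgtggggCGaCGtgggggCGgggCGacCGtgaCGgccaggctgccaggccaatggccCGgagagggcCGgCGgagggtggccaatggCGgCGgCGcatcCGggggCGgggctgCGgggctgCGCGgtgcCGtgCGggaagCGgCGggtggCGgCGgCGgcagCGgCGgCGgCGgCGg
Rab33b: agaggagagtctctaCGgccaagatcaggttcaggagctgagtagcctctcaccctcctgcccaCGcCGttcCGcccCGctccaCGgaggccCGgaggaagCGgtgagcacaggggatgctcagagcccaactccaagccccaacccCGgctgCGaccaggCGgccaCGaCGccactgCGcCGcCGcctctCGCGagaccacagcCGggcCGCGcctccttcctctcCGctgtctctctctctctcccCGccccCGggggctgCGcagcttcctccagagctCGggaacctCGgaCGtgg
Rab3d: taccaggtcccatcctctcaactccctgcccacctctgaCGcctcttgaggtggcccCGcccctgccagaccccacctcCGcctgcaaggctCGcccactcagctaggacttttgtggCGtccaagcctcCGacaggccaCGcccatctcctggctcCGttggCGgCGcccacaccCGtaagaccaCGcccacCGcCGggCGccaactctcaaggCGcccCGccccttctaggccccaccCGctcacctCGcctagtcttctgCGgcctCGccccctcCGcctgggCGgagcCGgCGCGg
The Rab8b window held 24 CpG dinucleotides at a GC content of 65.3%, Rab40c 36 at 75.3%, Rab33b 28 at 70.0% and Rab3d 26 at 71.0%. The first listed windows of Rab3a and Rab13, also higher with E29, had a GC content of 60.0% and 56.7%. None of the 4 windows held a match on either strand to the interferon-gamma activated site TTCNNNGAA, the interferon-stimulated response element core TTTCNNTTT, the NF-kB core GGANTTNCC, the cAMP response element TGACGTCA or the E-box CACGTG.

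Promoters of 47 of the 57 members were found in the table by gene ID, windows on chromosome 18 left out and the first listed window taken per gene. For the 32 detected members the median GC content was 63.3% and the median observed to expected CpG ratio 0.78. For the 15 undetected members these were 58.7% and 0.59, and for 6682 genes detected on at least 1 array 61.2% and 0.78. The TTCNNNGAA letters occurred in 6.25% of detected members' windows, against 6.96% of windows of all detected genes, and the TTTCNNTTT letters in none, against 7.54%. GGANTTNCC was in none (4.01% of all detected genes), TGACGTCA in 1, Rab5a (3.12%, against 3.43%), and CACGTG in 4 (12.5%, against 10.4%). The members' starts were thus much like those of other detected genes in these letters, and no overlap between motifs was counted apart.

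The members higher with E29 differed by less. Rab3a stood at 7.24 without activation and 6.31 with it. With compounds, from the highest down, it stood at 7.76 (E29), 7.47 (E33), 6.70 (E23), 6.52 (E5), 6.37 (E4 and E19), 6.30 (E18, E14 and E20) and 6.20 (E21). The E29, E33 and non-activated arrays stood above the other 9. E29 was 2.72-fold above the activated control and 1.43-fold above the non-activated control. Rab3a has 1 probe, and it is a gene of neurons, so neuronal markers are given beside it. Of 7 neuronal markers, 3 were detected on all arrays (Syt1, Map2 and Syp), Dcx on 2 arrays, and Rbfox3, Tubb3 and Snap25 on none. Their summed level was 11.39 in the non-activated control, 11.43 in the activated control, between 11.33 and 11.56 with the 8 compounds other than E29 and E33, 11.68 with E33 and 11.93 with E29. Syt1 stood at 6.17 in the activated control, 7.69 with E29 and 6.33 with E33. In the same order Map2, which made up most of the sum, stood at 11.25, 11.71 and 11.53, and Syp at 6.98, 7.96 and 6.92. The part of these genes in the Rab3a result was not tested.

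Rab3d, of exocytosis in secretory cells, stood at 7.92 without activation, 7.46 with it and, with compounds, at 8.81 (E29), 7.90 (E4), 7.63 (E14), 7.55 (E33), 7.51 (E5), 7.51 (E18), 7.51 (E19), 7.50 (E21), 7.48 (E23) and 7.30 (E20). E29 stood above all others, with the non-activated control and E4 next. It was 2.55-fold above the activated control. Rab36, a less studied member of Golgi and late endosomes, stood at 7.99 without activation, 7.63 with it and, with compounds, at 8.80 (E29), 8.37 (E4), 8.09 (E14), 8.01 (E33), 7.80 (E23), 7.78 (E19), 7.77 (E18), 7.63 (E5), 7.61 (E20) and 7.42 (E21). E29 and E4 were the highest arrays, and E29 was 2.25-fold above the activated control. Rab13, of junction assembly in epithelia, stood at 6.82 without activation, 6.80 with it and, with compounds, at 7.95 (E29), 6.92 (E4), 6.91 (E14), 6.87 (E33), 6.79 (E20), 6.76 (E23), 6.68 (E21), 6.58 (E19), 6.53 (E5) and 6.38 (E18). The E29 array alone stood apart, 2.21-fold above the activated control. Its other probe gave a log2 difference of 1.32. On all 4 genes the E29 array held the highest of the 12 values.

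Just inside the line, the early endosomal members Rab21, which carries integrins, and Rab4b, of recycling, had log2 differences of 0.96 and 0.89 with E29, and the brain-enriched Rab6b had 0.80. Rab4a followed with 0.66. On none of the 8 early endosomal members was a 2-fold difference reached, beside 24.7% of all genes, and their median was 0.35, beside 0.25 for all genes. All 8 were detected on both arrays, and the median of all genes so detected was 0.30. The late endosomal and lysosomal group had no call either, with a median of 0.07 over the 6 members detected on both arrays, while Rab7b was undetected with E29 and gives no fold there.

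The higher calls with E29 depend on the scaling, while Rab8b, Rab40c and Rab33b were lower at 2-fold in all settings run. Counted from the median of all genes, which lay 0.25 above 0, 2 members were higher (Rab3a and Rab3d) and 4 lower (Rab8b, Rab40c, Rab33b and Rab35). Scaling to reference genes left none higher and 5 lower, with Rab34 added. Without background correction 1 was higher (Rab3d) and 3 were lower. With an offset of 50 Rab13 was no longer called, leaving 3 higher. The median of all genes was -0.17 with reference gene scaling and 0.16 without background correction. Members higher made up 4 of 7 calls in the reported setting, 2 of 6 counted from the median, 0 of 5 with reference gene scaling and 1 of 4 without background correction. Of all genes' calls the higher ones made up 41.3%, 16.9%, 3.70% and 13.1% in the same order, so that the shift was shared by the whole array.

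**Figure D3:**
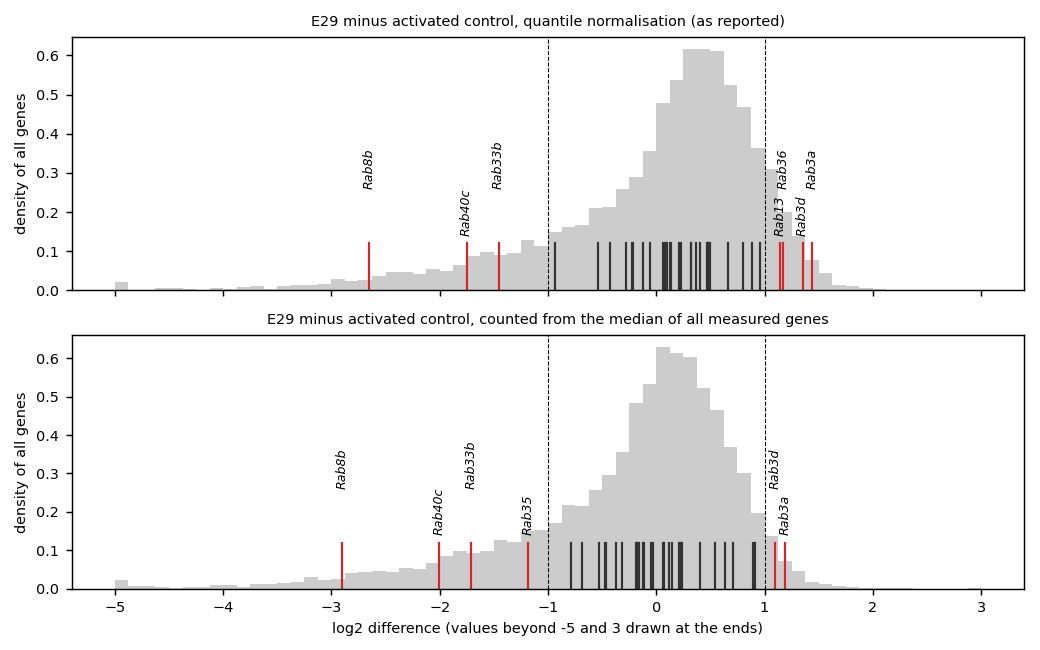
Log2 difference of E29 minus the activated control for 7472 measured genes (grey histogram, density) and for the 35 Rab genes detected on both arrays (ticks, red at 2-fold or more), as reported above and counted from the median of all measured genes below; dashed lines mark 2-fold. The counted-from-median panel keeps Rab3a and Rab3d above the upper line and moves Rab35 below the lower one.

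With E33, Rab3a was the single member called, 2.23-fold higher than in the activated control (log2 difference 1.16). That is 1 of 36 measured members (2.78%), beside 0.973% of all 7502 measured genes. At 1.5-fold 3 members were past the line, 8.33%, beside 7.18% of all genes. The call ended with an offset of 50 (0.90) and without background correction (0.64). Its level with E33, 7.47, lay near that of the non-activated control, 7.24, and Rab3a was the member with the largest difference. Rab8b came next, 1.92-fold lower with E33 than in the activated control (-0.94), and its other probe gave -0.60. With E33 it still stood above the non-activated control (11.58 against 11.05). Rab1b had 0.59 and, by the probe used, was highest of the 12 arrays with E33. Another Rab1b probe detected on all 12 arrays gave 0.31 with E33 and was highest with E29 (6.89, against 6.17 with E33). Further named members were Rab36 (0.39) and Rab7b (0.36).

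With E4, no member was called among 36 measured, beside 3.38% of all 7493 measured genes. At 1.5-fold 4 members were past the line, 11.1%, beside 14.1% of all genes. Rab32, which acts on mitochondria and lysosome-related organelles, had the largest difference, -0.75, and was lowest with E4 (9.38). The activated control held its highest value (10.13), so with the other 10 activated arrays' median as reference the difference was -0.54. Rab36 had 0.74, Rab8b -0.71, Rab4b 0.63 and Rab11b -0.51. The other Rab8b probe gave -0.47 with E4.

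**Figure D4:**
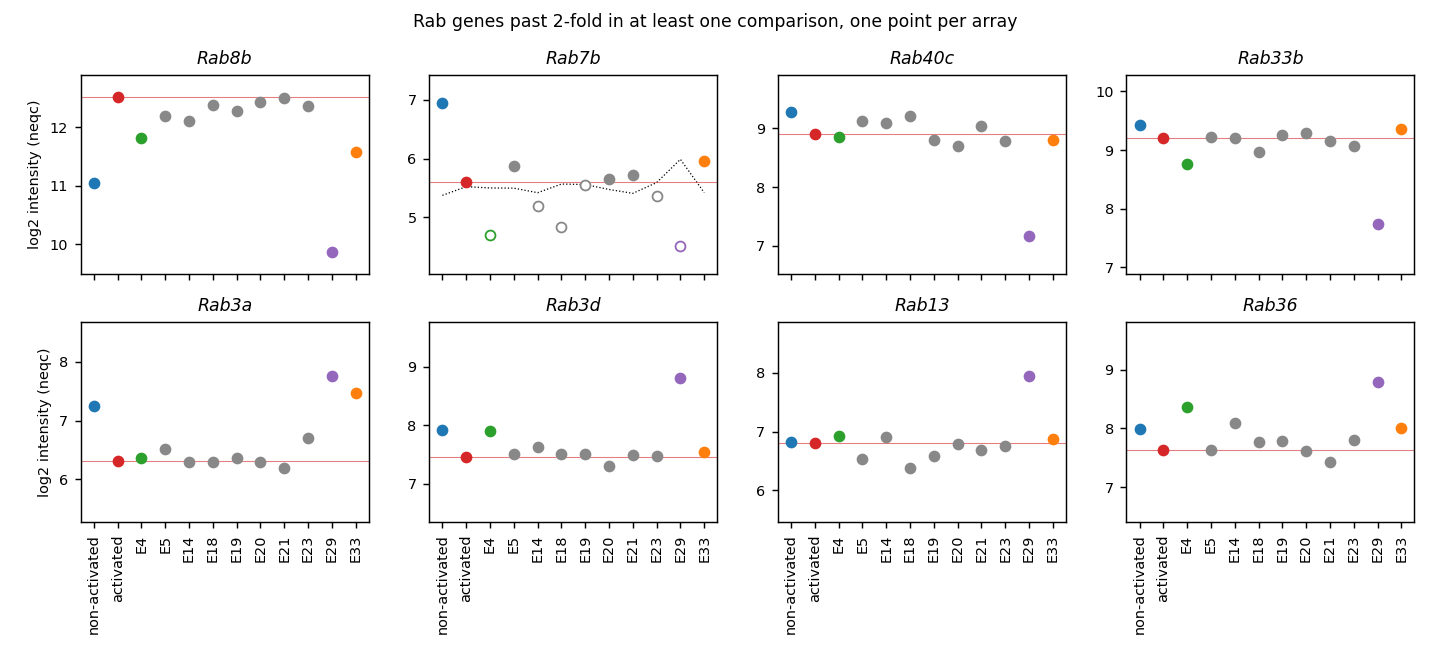
Log2 intensity on each of the 12 arrays for the 8 Rab genes past 2-fold in at least 1 comparison, one panel per gene over an equal span, with filled points where the gene was detected and open points where it was not; the red line is the activated control and the dotted line in the Rab7b panel the lowest detected value of each array. Rab8b, Rab40c and Rab33b are lowest on the E29 array, and Rab3a is high on the non-activated, E29 and E33 arrays.

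The other 7 compounds (E5, E14, E18, E19, E20, E21 and E23) left the Rab genes within 2-fold: over 253 differences none was called. Of all measured genes 0.0947% were called with E5, 0.281% with E14, 0.299% with E18, 0.409% with E19, 0.0406% with E20, 0.107% with E21 and 0.0410% with E23. The members' values ran from -0.66 (Rab23 with E18) to 0.47 (Rab1b with E19). At 1.5-fold 2 differences were past the line, Rab23 and Rab32 (-0.59) with E18, where 3.65% of all genes were. The standard deviation of the members' differences lay between 0.15 (E23) and 0.25 (E18), and that of all genes between 0.20 (E5) and 0.26 (E18). On the E21 array 9 of 35 members held their lowest value of the 12 arrays (25.7%, against 11.5% of all genes detected throughout), and 26 of 36 members lay below the activated control, as did 3990 of 7503 genes. The medians were -0.07 and -0.01. Among them Rab5a stood at 10.12, Rab29 at 8.75 and Rab12, which helps to degrade the transferrin receptor, at 8.78 with E21.

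The genes that load, hydrolyse, anchor and read Rab proteins were looked up as lists chosen with earlier results of these data known. On activation, 2 of 20 measured exchange factors were lower, Rin2, an exchange factor for Rab5 (2.48-fold), and Dennd2a (2.31-fold). None of 25 GTPase-activating proteins and none of 6 genes of GDP dissociation inhibition, prenylation and membrane delivery was called. Of 27 effectors 1 was lower, Rilpl2 (2.08-fold), which acts in cilium traffic. The shares were 10.0% of the exchange factors and 3.70% of the effectors, beside 5.30% of all genes. With E4, 3 of 18 exchange factors were lower, namely Dennd3 (at least 3.53-fold), Mon1b, part of the factor that loads Rab7 (2.22-fold), and Rab3ip, also called Rabin8, which loads Rab8 (2.22-fold). Rab11fip5 (2.01-fold) and the exocyst subunit Exoc6 (2.11-fold) were lower among 26 effectors. These shares, 16.7% and 7.69%, stand beside 3.38% of all genes. Against the other arrays' median only Rab3ip of these 5 genes stayed past 2-fold (-1.19), while Dennd3 had -0.98, Mon1b -0.96, Exoc6 -0.94 and Rab11fip5 -0.88.

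With E29, 4 of 18 exchange factors were lower and none higher: Rabgef1, a Rab5 exchange factor (4.66-fold), Rabif (at least 3.58-fold), Mon1b (2.60-fold) and Dennd3 (at least 2.52-fold). Of 24 GTPase-activating proteins 4 were higher, among them Tbc1d5 (2.67-fold) and Sgsm2 (2.44-fold), and 2 lower, Tbc1d25 (at least 4.68-fold) and Usp6nl (at least 3.56-fold). Of 27 effectors 4 were higher, among them Vps41 (2.12-fold), Ehbp1 (2.03-fold) and Fyco1, which links Rab7 to kinesin (3.33-fold), and 4 lower, among them Micall2 (at least 7.10-fold), a partner of Rab8 and Rab13, and Plekhm1, a lysosomal effector of Rab7 (4.90-fold). With the other 10 activated arrays' median as reference Dennd3 (-0.49), Sgsm2 (0.78), Vps41 (0.77) and Ehbp1 (0.90) were no longer past 2-fold. The prenylation and delivery genes had no call and a median of 0.52. These shares, 22.2%, 25.0%, 29.6% and 0%, stand beside 24.7% of all genes. With E33 Dennd3 was lower (2.32-fold), as it was with E18 (2.18-fold), and no other regulator or effector on these lists was called with E33. Against the other arrays' median the Dennd3 differences were -0.37 with E33 and -0.28 with E18, so both calls ended.

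The Arf and Arl genes and the Ras family, other small GTPases, were set beside the Rab genes with E29 as counts only. The Arf and Arl genes had 1 of 10 called (Arf6, 4.04-fold lower) and a median of -0.03. The Ras family had 6 of 17 called, 4 of them lower, and a median of -0.43. The Rab median was 0.22, that of all genes 0.25, and no test of the difference between families was made. The shares called were 10.0% of the Arf and Arl genes and 35.3% of the Ras family, beside 24.7% of all genes. On activation the Ras family had 3 of 17 called (17.6%), beside 5.30% of all genes, and 1 of the 3, Mras, was short of 2-fold (0.91) against the median of all 11 activated arrays.

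Patterns over the 12 arrays were compared as a description; the points share arrays and the E29 value weighs on each of them. Rab8b was most like Rab35 (Pearson r = 0.87), Rab40c (0.72) and Rab33b (0.69) among the detected Rab genes. Rab33b and Rab40c were each other's nearest (0.87), and Rab3d was nearest to Rab36 (0.89). Rab13 was nearest to Rab6b (0.91), Rab3a to Rab28 (0.81) and Rab7b to Rab34 (0.82). Among all 5912 genes detected throughout, the named genes nearest to Rab8b were Rrp12, of ribosome assembly (0.99), and Fam107b (0.98). Rrp12 was higher on activation by 1.95 log2 units and had a difference of -2.98 with E29, beside 1.47 and -2.65 for Rab8b. Both comparisons use the activated control array.

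Several probes for one gene give the only repeat measurement on an array. Of the members detected throughout, 16 further probes were themselves detected on all arrays. Their log2 difference departed from that of the probe used by a median of 0.22 for activation and 0.27 for E29, and by at most 0.66 and 0.76. They had the same sign in 12 of 16 cases for activation and 14 of 16 for E29. For the called members with such a probe, Rab8b and Rab13, the sign was the same in 3 of 3 cases. The other called members, Rab3a, Rab3d, Rab7b, Rab33b, Rab36 and Rab40c, have 1 probe each, so their calls had no such check. For the 7 compounds without a call the median gap lay between 0.08 (E14) and 0.29 (E18). The sign was the same in between 7 (E18) and 11 (E14 and E21) of 16 cases. The direction of small differences with these compounds was thus often not repeated by a further probe.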

How the data were processed

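Expression was measured on 12 one-colour arrays, 1 per group, so no test between groups was made. The authors deposited mean bead intensity, non-normalized per the file header. Detection p-values for each probe were deposited beside it. The submitters' processing notes name GenomeStudio 2010.3, and whether it subtracted background was not stated. The authors' processed intensities, also deposited, are linear with a floor of 10 and of unknown normalisation.

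Deposited intensities became log2 values through neqc, which corrects background and normalises by quantiles (limma 3.58.1, R 4.3.3; offset 16, background from detection p-values). Genes were measured where detected (p under 0.01) on at least 1 array compared; undetected values were raised to their array's lowest detected value, so such folds read "at least". All 57 symbols matched RefSeq by gene ID. Lists were counted in Python 3.11.15 (pandas 2.3.3, numpy 2.4.6); figures used matplotlib 3.10.9. Precision is limited by having 1 array per group and by signal over background.

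The members, lists and alternatives were chosen with earlier results of these data known. Named were all members past 2-fold, the 5 largest differences for activation, E29, E4 and E33, members within 0.15 log2 units of the 2-fold line, the brightest 5 and dimmest 3 detected members, examples of each role and the undetected members; others named for their level or span were chosen after their values were seen.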

Additional observations from a re-analysis of the deposited data

How the results depend on the processing

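Each Rab count and median was recomputed under 9 planned settings, at 1.5-fold for activation, E4, E29 and E33, and, added after seeing the data, counted from the median of all genes. For the 7 compounds without a Rab call, no count of calls moved. For activation, the count of lower members was 0 without background correction and with an offset of 50, and 2 with the median of the activated arrays, with reference gene scaling and with the authors' processed table. At 1.5-fold 3 members were higher and 3 lower on activation, 2 and 2 with E4, 8 and 4 with E29, and 2 and 1 with E33. With E4, reference gene scaling gave 1 lower member and a median of -0.24. With E29, it gave 0 higher and 5 lower members and a median of -0.10, counting from the median gave 2 higher, 4 lower and a median of -0.037, and no background correction gave 1 higher. An offset of 50 gave 3 higher, and no detection filter gave 4 lower, with Rab7b added. With E33, the higher count was 0 without background correction and with an offset of 50. The cause of these shifts was not tested. No paired analysis was possible because each group is 1 array and the labels give no replicate numbers. Depth limits dim members: with E29 the floor was 5.99, so decreases of genes such as Rab7b could not be measured there.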
